A study of Mus musculus with 8 samples.

Results

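The genes described here encode the mouse ATG8-like proteins and the proteases that process them, 9 genes chosen by name from the 35275 in the deposited table. They are the LC3 genes Map1lc3a and Map1lc3b, the GABARAP genes Gabarap, Gabarapl1 and Gabarapl2, and the cysteine protease genes Atg4a, Atg4b, Atg4c and Atg4d. Each had 1 row in the table, and all 9 reached the mean of at least 1 FPKM (fragments per gene, scaled by gene length and by the fragments of the library) that 11019 genes reached.

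RNA was sequenced from macrophages sorted out of subcutaneous MC38 tumors, MC38 being a colon adenocarcinoma line of C57BL/6 mice. Both groups were female C57BL/6J mice with floxed Atg5 alleles, aged 6 to 8 weeks, that carried tumors started from 100000 MC38 cells and collected on day 21. The 4 mice labelled Atg5 WT were Atg5flox/flox without Cre, and the 4 labelled Atg5 KO were Atg5flox/flox with LysMcre, in which Cre is made from the Lyz2 locus and so acts in macrophages, monocytes and neutrophils but not in the tumor cells. The sort took CD11b+ F4/80+ Ly6G- Ly6C- cells, with 1 library for each mouse and 14799546 to 25555195 fragments assigned to genes in a library.

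ATG8-like proteins are made as precursors. ATG4 proteases cut each precursor behind a glycine near its end, and the exposed glycine is then joined to phosphatidylethanolamine in the growing autophagosome membrane by the enzymes ATG7 and ATG3 together with a complex of ATG12, ATG5 and ATG16L1. ATG4 proteases also remove the proteins from membranes again. ATG5 therefore acts on the products of these genes after translation, and in macrophages the same conjugation also marks phagosomes during LC3-associated phagocytosis. The comparison asked whether the RNA of these genes differs when the host's myeloid cells carry the Atg5 deletion.

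The last 48 bases of the 5 ATG8-like coding sequences are shown because they hold the site at which ATG4 acts, the feature that ties the 2 protein families together. They run 5′ to 3′ on the plus strand and end with the stop codon, and capitals mark the last glycine codon that follows a phenylalanine or tyrosine codon. The sequences are from GENCODE release M21, on the mm10 (GRCm38) assembly.
Map1lc3a: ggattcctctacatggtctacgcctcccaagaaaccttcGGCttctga
Map1lc3b: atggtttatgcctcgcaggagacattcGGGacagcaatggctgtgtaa
Gabarap: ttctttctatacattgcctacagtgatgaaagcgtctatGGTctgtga
Gabarapl1: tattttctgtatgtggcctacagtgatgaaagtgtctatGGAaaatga
Gabarapl2: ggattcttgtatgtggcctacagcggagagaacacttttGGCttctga
The marked codon was number 120 in both LC3 genes and number 116 in the 3 GABARAP genes. In Map1lc3b it was followed by 5 codons before the stop, and in each of the other 4 genes by 1. These ends lie at chr2:155277590-155277637 for Map1lc3a, chr8:121596723-121596770 for Map1lc3b, chr11:69994477-69994524 for Gabarap, chr6:129541120-129541167 for Gabarapl1 and chr8:111952358-111952405 for Gabarapl2, each an unbroken stretch of the genome. Over the whole coding sequence, Map1lc3a and Map1lc3b shared 75.7% of bases and Gabarap and Gabarapl1 74.9%, while an LC3 and a GABARAP gene shared 57.4% to 63.0%.

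The libraries have features that bear on every value below. Atg5 RNA was higher in the KO-labelled libraries, at 4.52 ± 1.49 FPKM for Atg5 WT against 14.03 ± 1.51 for KO-labelled mice (SD, n = 4 each), where limma gave adjusted p values of 0.0987 and, blocking on mouse number, 0.00481. The targeted gene thus went against its label, every direction below rests on that label, and whole-gene FPKM does not measure the floxed exon alone. Lyz2, whose locus carries the Cre, was at 5249 ± 825.5 FPKM for Atg5 WT against 3022 ± 310.6 for KO-labelled mice (SD, n = 4 each). The 2 mouse 1 libraries stood apart from the other 6, and both lay above all 6 others for 29.8% and below them for 14.7% of genes. The summed FPKM of 12 fibroblast markers reached 192 and 354 in the mouse 1 pair, Atg5 WT first, against 30.5 to 60.9 elsewhere. Col3a1 alone gave 74.1 and 149 of these sums. Another of the markers, Col1a1, was at 4.37 and 10.4 FPKM in that pair, against 5.85 to 8.50 elsewhere. Of the markers of the sorted cells, Csf1r, the receptor for the macrophage growth factor CSF1, was at 347 to 392 FPKM, and its groups overlapped. Itgam, which encodes CD11b, an antigen the sort selected for, was at 243 to 269 FPKM for Atg5 WT. In KO-labelled mice it was at 290 to 349, and its groups did not overlap. Of 12 listed macrophage markers 11 had values, and the gene of the other antigen selected for was not among them. Of these 11 differences 2, Itgam among them, were above and 9 below 0. Ly6g, the neutrophil antigen removed in the sort, was listed at 0 in all libraries but KO-labelled mouse 3, where it was at 0.13. Some other monocyte and neutrophil markers were present. Ly6c2, which encodes an antigen the sort was set against, was at 2.09 to 14.9 FPKM. The monocyte chemokine receptor Ccr2 was at 59.4 to 112. Of the neutrophil list, Retnlg was at 17.8 to 44.6 and Mmp9 at 6.71 to 81.9. In that list 4 of 9 markers, Ly6g among them, were below 1 FPKM in all libraries.

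No difference between the groups was detected for any of the 9 genes. No member passed an adjusted p of 0.05 by limma, against 0 of 11019 genes (0%), and no member passed an unadjusted p of 0.05 either, against 223 genes (2.02%). Voom on the recovered fragments also called 0 genes (0%), with 217 (1.97%) at an unadjusted p under 0.05. With the mouse number as a block, without both mouse 1 libraries and with median-of-ratios scaling 1 gene passed (0.00908% in each case), which was Atg5, and with voom and the block 8 genes (0.0726%), none of them a member. Without both mouse 1 libraries no member had an unadjusted p under 0.05, beside 5.61% of genes. The adjusted p of each member was 0.999, and no member had groups that did not overlap, against 1.74% of genes. The differences lay between -0.25 and 0.15 on the log2(FPKM + 1) scale, 5 of them above and 4 below 0, with a median of 0.0065 beside 0.029 over all genes tested. The 95% intervals of the 9 differences lay between -0.60 and 0.60. The adjusted test called no gene at all, the differences of 1.47 ± 0.17 (SE) for Atg5 and -0.79 ± 0.13 (SE) for Lyz2 included. The lack of a call therefore does not show that a member is unchanged. How far each member may differ is given by its 95% interval, which is not adjusted for the number of genes. In bulk RNA, fewer cells of a type and less RNA per cell cannot be told apart.

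**Figure D1:**
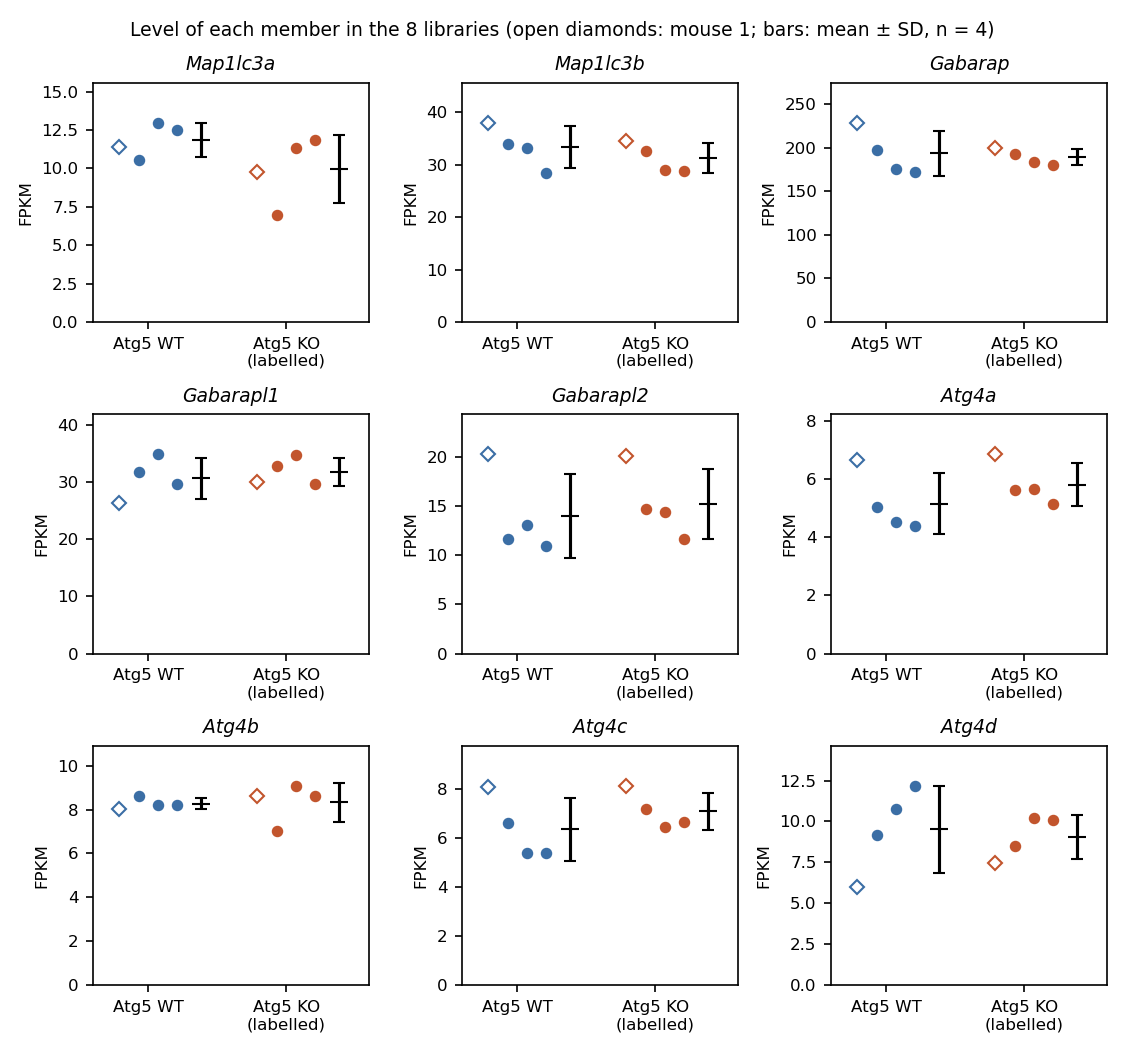
FPKM of the 9 genes in each library, with axes that start at 0; blue points are Atg5 WT and orange points KO-labelled libraries, open diamonds are mouse 1, and bars give the mean ± SD of 4 mice. In every panel the groups overlap, and in Map1lc3b, Gabarap, Gabarapl2, Atg4a and Atg4c the open diamonds are the highest points of both groups.

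Gabarap RNA dominated the family. Gabarap (ENSMUSG00000018567, chromosome 11, 69991143 to 69994951, plus strand) was named for binding the GABA-A receptor, and its product acts late in autophagosome formation. It was at 228, 197, 175 and 172 FPKM in Atg5 WT mice 1 to 4 and at 200, 193, 184 and 180 FPKM in KO-labelled mice 1 to 4. The KO-labelled values all lay inside the range of the Atg5 WT values. Its mean over the 8 libraries was 191 ± 18.1 FPKM (SD, n = 8), above that of 97.0% of the genes tested. Each of these values came from 3445 to 6898 fragments. The groups lay -0.02 ± 0.11 (SE) apart in log2(FPKM + 1), KO-labelled minus Atg5 WT. This value was 0.015 with TPM scaling and 0.034 without both mouse 1 libraries.

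Map1lc3b (ENSMUSG00000031812, chromosome 8, 121590361 to 121598760, plus strand) encodes LC3B, the protein most often followed as a marker of autophagosomes. It was at 38.01, 34.0, 33.2 and 28.3 FPKM in Atg5 WT mice 1 to 4. In KO-labelled mice 1 to 4 it was at 34.6, 32.6, 29.0 and 28.8 FPKM. The values were lower in 3 of the 4 KO-labelled mice than in the mouse of the same number, and the lowest of all came from Atg5 WT mouse 4. In log2(FPKM + 1) units, KO-labelled minus Atg5 WT came to -0.09 ± 0.12 (SE).

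The level of Map1lc3b depends on the gene length by which it was divided. The deposited length is 4138 bases, the length of the transcript Map1lc3b-202, which the annotation classes as a retained intron. The principal coding transcript, Map1lc3b-201, has 2532 bases. With the coding length the values are 1.63 times as high, 54.5 ± 6.48 FPKM for Atg5 WT against 51.1 ± 4.65 for KO-labelled mice (SD, n = 4 each). This scaling is the same in every library and leaves the ratio of the groups as it was. The fragments were still those counted for the whole gene, any from the longer transcript included. The scaled values may therefore be too high for the coding transcript. The deposited length was 4186 against 4173 bases for Atg4b and equal to that of the principal coding transcript for Map1lc3a, Gabarap, Gabarapl2, Atg4a and Atg4c. Among 10305 protein-coding genes tested, 365 (3.54%) had, like Map1lc3b, a deposited length set by a transcript over 1.5 times as long as the longest coding one.

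Map1lc3a (ENSMUSG00000027602, chromosome 2, 155276297 to 155278073, plus strand) encodes LC3A, the close relative of LC3B. It was at 11.4, 10.6, 12.96 and 12.5 FPKM in Atg5 WT mice 1 to 4 and at 9.78, 6.95, 11.3 and 11.9 FPKM in KO-labelled mice 1 to 4. It was the only one of the 9 genes that was lower in the KO-labelled mouse of all 4 same-numbered pairs, which 6.52% of genes were, while its groups overlapped. The lowest value came from KO-labelled mouse 2, with 125 fragments behind it. KO-labelled minus Atg5 WT, on the log2(FPKM + 1) scale, gave -0.25 ± 0.16 (SE), with an unadjusted p of 0.148 and an adjusted p of 0.999 by limma. When mouse number was the block, the unadjusted p was 0.0338, where 8.81% of genes were under 0.05 and 3.62% were so with the KO-labelled group lower, and the adjusted p was 0.565. Without KO-labelled replicate 2 the difference was -0.10.

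Gabarapl1 (ENSMUSG00000030161, chromosome 6, 129533200 to 129542331, plus strand) encodes the closest relative of GABARAP. It was at 26.4, 31.9, 34.9 and 29.7 FPKM in Atg5 WT mice 1 to 4 and at 30.0, 32.8, 34.8 and 29.8 FPKM in KO-labelled mice 1 to 4. Values of mice 2 to 4 differed little between the groups, and Atg5 WT mouse 1 gave the lowest value. On the log2(FPKM + 1) scale the groups lay 0.05 ± 0.11 (SE) apart, and -0.014 without that library.

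Gabarapl2 (ENSMUSG00000031950, chromosome 8, 111940703 to 111953612, plus strand) encodes GATE-16, first described as a factor of transport within the Golgi. It was at 20.3, 11.7, 13.1 and 10.96 FPKM in Atg5 WT mice 1 to 4. In KO-labelled mice 1 to 4 it was at 20.2, 14.8, 14.4 and 11.7 FPKM. The 2 mouse 1 libraries were almost equal and well above the rest, at 12.8 ± 1.57 FPKM (SD, n = 6). The groups lay 0.13 ± 0.21 (SE) apart in log2(FPKM + 1), KO-labelled minus Atg5 WT, the widest error of the 9 genes, and 0.18 ± 0.12 (SE) without both mouse 1 libraries. Without KO-labelled replicate 1 alone it was -0.0055.

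The order of levels per kilobase was Gabarap, Map1lc3b, Gabarapl1, Gabarapl2 and Map1lc3a. Gabarap was above Map1lc3b in all 8 libraries, 5.29 to 6.33 times as high with the deposited lengths and 3.24 to 3.88 times with the coding length of Map1lc3b. Map1lc3b and Gabarapl1 were not separated by the deposited values, since Map1lc3b was the higher in 3 of 8 libraries. With the coding length, which may give too high a level, Map1lc3b was the higher in all 8. Gabarapl2 was above Map1lc3a in 6 of 8 libraries, and their ranges overlapped. In percent of the summed FPKM of the 5 genes, Gabarap made up 68.1 ± 1.57 (SD, n = 8), Map1lc3b 11.5 ± 0.55, Gabarapl1 11.2 ± 1.53, Gabarapl2 5.17 ± 0.96 and Map1lc3a 3.93 ± 0.83. With the coding length of Map1lc3b, the shares of Gabarap and Map1lc3b were 63.5 ± 1.502 and 17.5 ± 0.78 percent (SD, n = 8). The summed level was 283 ± 30.4 FPKM for Atg5 WT against 278 ± 13.4 for KO-labelled mice (SD, n = 4 each). The share of Gabarap was 68.1 ± 2.26 percent for Atg5 WT against 68.2 ± 0.78 percent for KO-labelled mice (SD, n = 4 each).

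**Figure D2:**
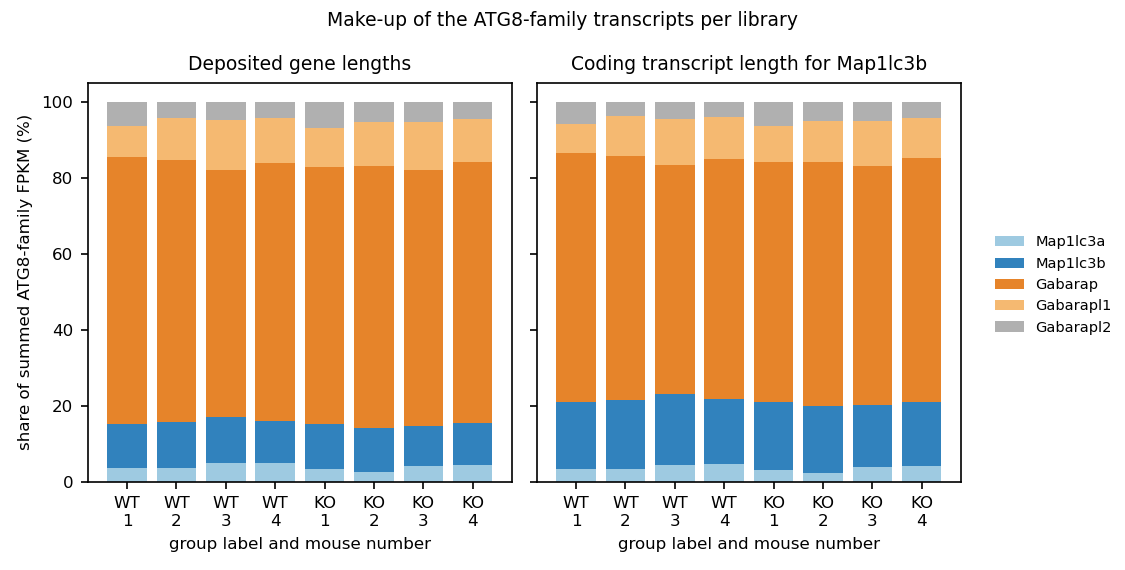
Share of each ATG8-like gene in the summed FPKM of the 5 genes, in percent, for the 8 libraries by group label and mouse number, with the deposited lengths on the left and the coding length of Map1lc3b on the right. Gabarap takes 65.1% to 70.4% of each bar on the left, and the Map1lc3b segment is larger on the right in every library.

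The 4 protease genes had lower mean levels than the ATG8-like genes, and the ranges of Atg4d and Map1lc3a overlapped. Their summed level was 29.3 ± 0.64 FPKM for Atg5 WT against 30.3 ± 1.36 for KO-labelled mice (SD, n = 4 each), and the sum of the ATG8-like genes was 8.42 to 11.3 times as high in single libraries. By mean over the 8 libraries, Atg4d was at 9.29 ± 1.96, Atg4b at 8.30 ± 0.61, Atg4c at 6.73 ± 1.05 and Atg4a at 5.48 ± 0.91 FPKM (SD, n = 8). The ranges of neighbours in this order overlapped, although Atg4c was above Atg4a in all 8 libraries.

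Atg4b (ENSMUSG00000026280, chromosome 1, 93751500 to 93790610, plus strand) encodes the protease with the broadest activity on ATG8-like proteins. It was at 8.04, 8.61, 8.21 and 8.20 FPKM in Atg5 WT mice 1 to 4 and at 8.61, 7.03, 9.08 and 8.62 FPKM in KO-labelled mice 1 to 4. It varied least of the 9 genes among the Atg5 WT libraries, and KO-labelled mouse 2 gave its lowest value. The groups lay 0.0065 ± 0.10 (SE) apart in log2(FPKM + 1), KO-labelled minus Atg5 WT, and -0.021 apart with median-of-ratios scaling and without both mouse 1 libraries.

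Atg4a and Atg4c were the 2 members that were higher in the KO-labelled mouse of all 4 same-numbered pairs, which 13.2% of genes were. Atg4a (ENSMUSG00000079418, chromosome X, 140956907 to 141164270, plus strand) encodes a protease that, in studies of the human enzyme, acts mainly on the GABARAP proteins. It was at 6.66, 5.04, 4.503 and 4.39 FPKM in Atg5 WT mice 1 to 4 and at 6.84, 5.62, 5.64 and 5.12 FPKM in KO-labelled mice 1 to 4. Both mouse 1 values were the highest of their group, and the groups overlapped. In log2(FPKM + 1) units, KO-labelled minus Atg5 WT came to 0.15 ± 0.14 (SE) with all libraries, and 0.20 ± 0.10 (SE) without both mouse 1 libraries, with an adjusted p of 0.776 by limma.

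Atg4c (ENSMUSG00000028550, chromosome 4, 99193934 to 99259787, plus strand) encodes a protease of low activity on its own. It was at 8.09, 6.59, 5.39 and 5.38 FPKM in Atg5 WT mice 1 to 4 and at 8.13, 7.16, 6.44 and 6.65 FPKM in KO-labelled mice 1 to 4. Mouse 1 was again highest in both groups, and the values of the pair differed least there. In log2(FPKM + 1) units, KO-labelled minus Atg5 WT came to 0.15 ± 0.14 (SE), and 0.20 ± 0.11 (SE) without both mouse 1 libraries.

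Atg4d (ENSMUSG00000002820, chromosome 9, 21265299 to 21274368, plus strand) encodes the remaining member of the protease family. It was at 5.99, 9.18, 10.7 and 12.2 FPKM in Atg5 WT mice 1 to 4. In KO-labelled mice 1 to 4 it was at 7.44, 8.52, 10.2 and 10.1 FPKM. In contrast to the other members that set mouse 1 apart, its values were lowest there. KO-labelled minus Atg5 WT, on the log2(FPKM + 1) scale, gave -0.03 ± 0.19 (SE), -0.14 ± 0.13 (SE) without both mouse 1 libraries and 0.00075 with TPM scaling. In the annotation Atg4d shares 1405 exonic bases with Kri1 on the opposite strand, at 8.00 to 11.7 FPKM here, and 792 of them lie inside the deposited span of Atg4d. Without the strand setting of the counting, reads from the 2 genes cannot be told apart there, and the Atg4d values are uncertain. Its level also depends on the deposited length of 2541 bases. The annotation used here has a longer gene model, which ends at 21277772, with a principal coding transcript of 5951 bases. Divided by that length the mean of Atg4d would be 3.97 ± 0.84 FPKM (SD, n = 8), the lowest of the 4 protease genes instead of the highest. The fragments, however, were those of the shorter deposited span, which ends at 21274368. The value of 3.97 is therefore likely too low and is not the level under the longer model. The place of Atg4d in the order of levels is uncertain.

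The only other gene whose name begins like those of the members was Atg4a-ps (ENSMUSG00000087119), a processed copy of Atg4a on chromosome 3. It was backed by 0 to 3 fragments in each library and did not reach the filter on low values. The treatment of fragments shared by Atg4a and this copy is not known here. Gabarapl1 shares 570 exonic bases with 1700101I11Rik on the opposite strand, which was at 0 to 0.459 FPKM, and Map1lc3b shares 58 with Zcchc14, which was at 1.93 to 6.74 FPKM.

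Several of these genes set the mouse 1 libraries apart in both groups. Both mouse 1 libraries were above all 6 others for Map1lc3b, Gabarap, Gabarapl2, Atg4a and Atg4c, 5 of 9 members beside 29.8% of genes. They were below all 6 others for Atg4d alone, beside 14.7% of genes. Gabarapl2 was 0.48 and 0.47 above its mean of the 8 libraries, on the log2(FPKM + 1) scale, in Atg5 WT and KO-labelled mouse 1, and Atg4d was 0.53 and 0.26 below. KO-labelled mouse 2 had the lowest value of Map1lc3a, 0.57 below the mean of the 8 libraries. The fibroblast markers moved with the mouse 1 libraries, as given above, with 6 of 12 above all other libraries in both. Their sum was also higher in the KO-labelled mouse of each same-numbered pair. The part of these markers in the members' levels was not tested.

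**Figure D3:**
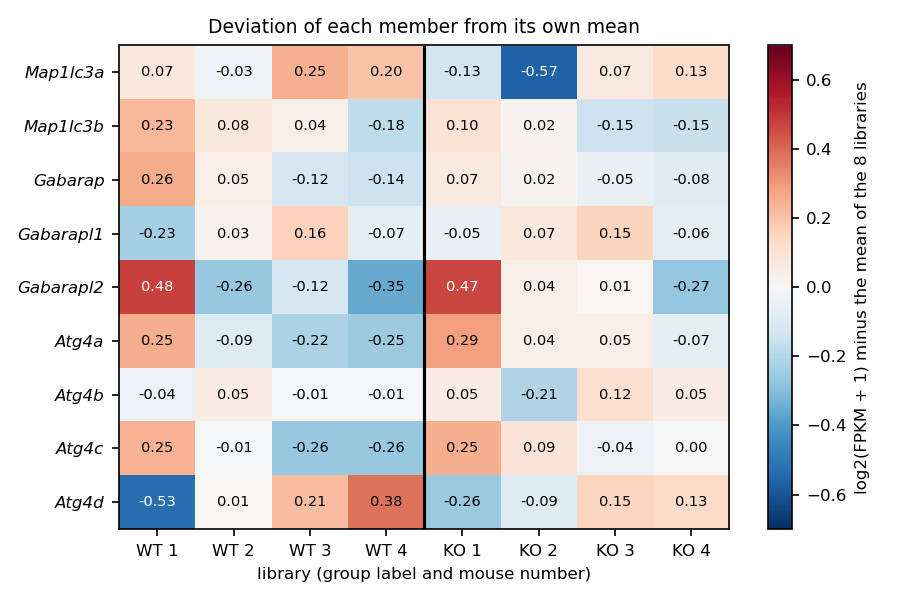
Each cell gives the log2(FPKM + 1) of a gene in a library minus the mean of that gene over the 8 libraries, red above and blue below, with a line between the Atg5 WT and the KO-labelled libraries. The columns of mouse 1 in both groups are red for Gabarapl2 (0.48 and 0.47), Atg4a (0.25 and 0.29) and Atg4c (0.25 and 0.25) and blue for Atg4d (-0.53 and -0.26).

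**Figure D4:**
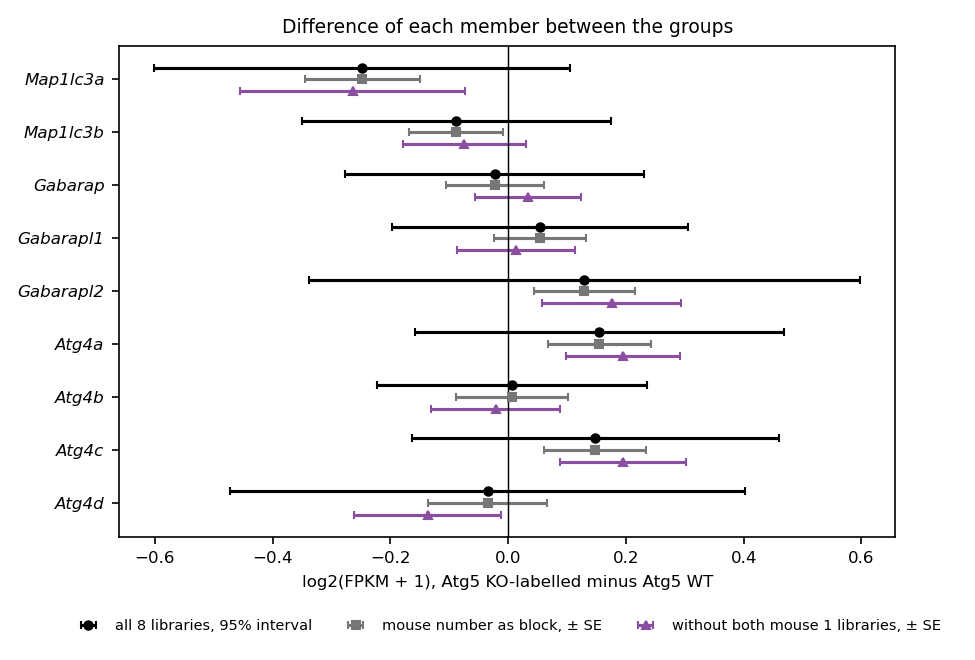
Difference of each gene between the KO-labelled and Atg5 WT libraries on the log2(FPKM + 1) scale, with all 8 libraries (black, 95% interval), with the mouse number as a block (grey, ± SE) and without both mouse 1 libraries (purple, ± SE). Every 95% interval includes 0. The SE fell most for Gabarapl2 when the mouse number was a block, from 0.21 to 0.09. Black and grey bars show different measures, so their lengths do not show this change.

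The genes with the profiles nearest to 3 of the members were found by the root mean square difference of centred log2(FPKM + 1) values over the 8 libraries, among 11018 other genes. For Map1lc3b they were 5430435G22Rik, Anapc16 and Fam50a, at 0.034, 0.040 and 0.049. For Map1lc3a they were Erp29, Pgls and Rpl13, at 0.053, 0.058 and 0.068. For Gabarapl1 they were Acvr1b, Atp6v1g2 and Ropn1l, at 0.065, 0.067 and 0.069. Of these, Atp6v1g2 was at only 0.74 to 1.47 FPKM and Ropn1l at 2.00 to 2.72. At such levels the log2(FPKM + 1) scale understates deviations. All these profiles come from the same 8 libraries and share their depth.

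Among 8 genes that act with ATG8-like proteins in conjugation, none passed an adjusted p of 0.05, and Atg5 and Atg10 were above their Atg5 WT level at an unadjusted p under 0.05, beside 1.2% of genes in that direction. Of the 8 differences 6 were above and 2 below 0, with a median of 0.05 beside 0.029 over all genes tested. Atg10, the enzyme that joins ATG12 to ATG5, was at 4.79, 2.88, 2.51 and 3.32 FPKM in Atg5 WT mice 1 to 4 and at 5.54, 4.997, 4.04 and 4.05 FPKM in KO-labelled mice 1 to 4. It was higher in the KO-labelled mouse of all 4 pairs, with a difference of 0.39 ± 0.17 (SE) on the log2(FPKM + 1) scale, an unadjusted p of 0.0471 and an adjusted p of 0.999 by limma. The enzymes that carry the ATG8-like proteins themselves did not pass, Atg7 at 15.8 ± 1.58 FPKM for Atg5 WT against 15.1 ± 1.56 for KO-labelled mice and Atg3 at 24.5 ± 1.82 and 26.8 ± 1.47 (SD, n = 4). Atg12 was at 12.1 ± 2.30 and 12.55 ± 2.505 FPKM, and Atg16l1 at 13.7 ± 0.52 and 14.1 ± 0.94 (SD, n = 4). Atg16l2, the paralog of Atg16l1, was at 3.59 ± 0.53 and 3.34 ± 0.24 FPKM, and Wipi2, which brings ATG16L1 to the membrane, at 10.2 ± 1.42 and 10.6 ± 1.54 (SD, n = 4).

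Of 14 tested genes of cargo receptors that bind ATG8-like proteins, none passed and none had an unadjusted p under 0.05, with 9 differences above and 5 below 0 and a median of 0.06. The smallest p belonged to Bnip3, a mitophagy receptor, at 89.7 ± 21.0 and 103 ± 7.12 FPKM (SD, n = 4) in Atg5 WT and the KO-labelled group, and to Fam134b, a receptor for the endoplasmic reticulum, at 23.2 ± 2.80 and 26.2 ± 2.83. The list of partners in fusion, trafficking and transport, which also held Alg9, a gene not known for binding ATG8-like proteins, had 11 tested genes. None of them passed either test, with 9 differences above and 2 below 0 and a median of 0.03. Its smallest p belonged to Trp53inp2, a nuclear and autophagosomal regulator, at 18.2 ± 1.23 and 16.1 ± 0.92 FPKM, and Fyco1, an adaptor for autophagosome transport, at 2.14 ± 0.30 and 2.60 ± 0.42 (SD, n = 4).

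Among 10 transcription factors known to act on autophagy genes, none passed an adjusted p of 0.05, and Tfec alone had an unadjusted p under 0.05. Of the 10 differences 4 were above and 6 below 0, with a median of -0.03. Tfec, a macrophage member of the family of Tfeb, was at 16.1, 15.6, 15.9 and 15.0 FPKM in Atg5 WT mice 1 to 4 and at 18.3, 18.0, 19.96 and 22.04 FPKM in KO-labelled mice 1 to 4. Its groups did not overlap, which held with the KO-labelled group higher for 1.15% of genes, and KO-labelled minus Atg5 WT came to 0.30 ± 0.10 (SE) in log2(FPKM + 1), limma's adjusted p being 0.999. Tfeb itself, named after its values were seen, was at 9.13, 22.8, 25.01 and 31.2 FPKM in Atg5 WT mice 1 to 4. In KO-labelled mice 1 to 4 it was at 9.09, 12.1, 25.6 and 28.7 FPKM, so that mouse 1 of both groups was below all 6 other libraries. The 6-base core of the site bound by Tfeb and its relatives, CACGTG, which reads the same on both strands, was in none of the 10 promoter windows that RefSeq (GRCm38.p6) gives for 8 of the 9 members, against 7.15% of 32851 windows of the same length, from 250 bases before to 50 after a start. This says only that these letters are not in these windows.

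**Figure D5:**
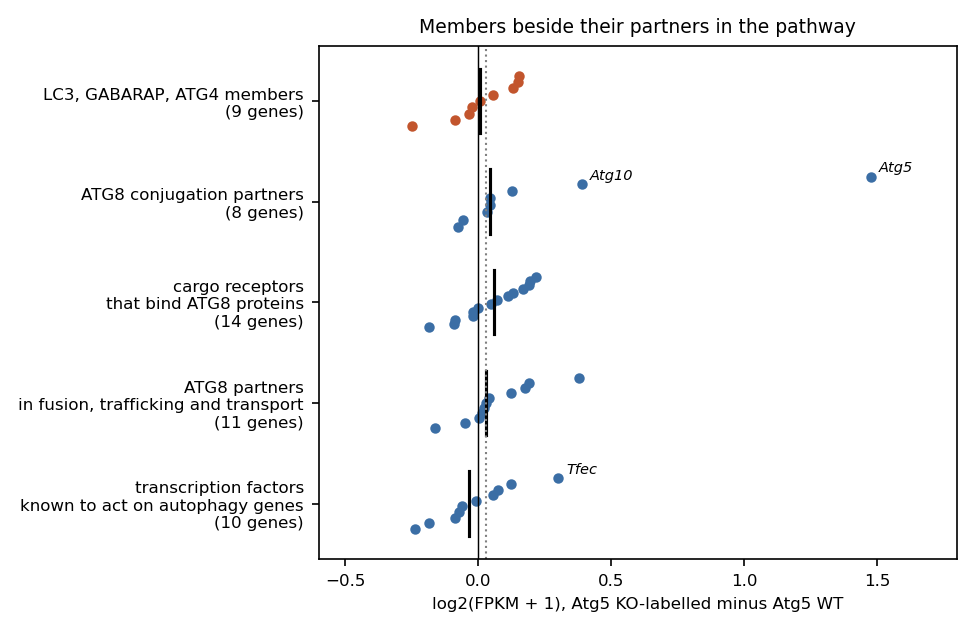
Differences between the KO-labelled and Atg5 WT libraries on the log2(FPKM + 1) scale for the 9 members (orange) and for the genes of 4 lists of partners that passed the filter on low values (blue); each point is a gene, bars are medians, and the dotted line is the median of all genes tested, 0.029. Atg5 at 1.47, Atg10 at 0.39 and Tfec at 0.30 are the named points with an unadjusted p under 0.05.

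Cell type markers were summed in each library. The summed FPKM of 11 macrophage markers was 14414 to 17096 for Atg5 WT against 10200 to 13897 for KO-labelled mice, a sum to which Lyz2, Apoe and the C1q genes contribute most. Lyz2 alone, whose locus carries the Cre, was at 4436 to 6268 and 2808 to 3467 FPKM. The sum was not taken without Lyz2 and does not measure macrophage content alone. Of the 11 differences 9 were below 0, and at an unadjusted p under 0.05 Lyz2 and the complement genes C1qa and C1qb were lower and the integrin gene Itgam higher in the KO-labelled group; limma's adjusted p was 0.985 for Lyz2 and 0.999 for the others. In the other lists the genes at an unadjusted p under 0.05 were F13a1 (monocyte), S100a8 (neutrophil) and Col1a1 (fibroblast), higher in the KO-labelled group, and Batf3 (dendritic cell), lower. Over all genes tested, 2.02% had an unadjusted limma p under 0.05, and 1.2% did so with the KO-labelled group higher. The median difference of all genes tested was 0.029. The summed FPKM of 8 monocyte markers was 164 to 252 and 206 to 330, and that of 9 neutrophil markers 41.3 to 97.8 and 71.0 to 145. Fibroblast markers summed to 192, 32.1, 30.5 and 41.6 in Atg5 WT mice 1 to 4 and to 354, 44.6, 51.7 and 60.9 in KO-labelled mice 1 to 4. This sum was higher in the KO-labelled mouse of each same-numbered pair, whereas Col1a1 was higher there in 3 pairs and lower in 1. Of the 7 tested fibroblast markers, 7 had a difference above 0 and 0 below. The sums were 43.4 to 76.2 and 37.9 to 61.5 for 9 dendritic cell markers, 2.84 to 8.93 and 2.14 to 4.71 for 12 lymphocyte markers, 43.9 to 75.3 and 36.4 to 70.4 for 7 epithelial markers, and 12.03 to 19.8 and 11.7 to 19.6 for 6 endothelial markers. Of the markers, Krt20 of the epithelial list was listed at 0 in every library, and 7 of the 12 lymphocyte markers were below 1 FPKM in all libraries. The part of these differences in the members' levels was not tested.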

How the data were processed

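Macrophage RNA from 8 mice was sequenced, and the authors deposited 1 table of FPKM values with gene names, coordinates and gene lengths. The submitters' processing notes name STAR, CASAVA and mm10 without roles or versions; no counter, strand setting or annotation is given in the sources used here. Of the gene identifiers, 97.8% are in GENCODE mouse release 21. The deposited length equalled the longest transcript of that release for 65.2% of the genes tested. Multiplied by gene length, 100% of FPKM values fell on whole fragments (within 0.01), which gave the fragments per gene. FPKM is relative to a library's assigned fragments, so a rise of some genes lowers others.

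Columns were matched to samples by name. The main test was limma 3.58.1 (R 4.3.3) with a trend on log2(FPKM + 1), two-sided, without a block, for the 11019 genes whose FPKM averaged 1 or more, adjusted by Benjamini-Hochberg over all of them. This scale understates changes of low genes. The tests were first run on simulated fragments with changes put in. The simulated libraries held no mouse 1 effect, so that run does not measure how well the tests detect changes here. Every pair of libraries differed beyond sampling noise (smallest chi-square over its degrees of freedom 10.3). Each library is 1 mouse.

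Same-numbered libraries deviated together (correlations over genes of 0.841, 0.208, 0.458 and 0.471 for mice 1 to 4), and with all of them over 0.1 the numbers were treated as pairs and a block was tried. The match was not the best for every mouse: Atg5 WT and KO-labelled libraries of different numbers reached 0.686 for mouse 4 with mouse 3, and 0.269 and 0.231 for mouse 2 with mice 3 and 4. Without mouse 1 the correlations were 0.297, -0.134 and 0.205, so the pairing rests largely on mouse 1.

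Genes named are the 9 members, Atg5, Lyz2, the conjugation partners, the genes of the other partner lists with an unadjusted p under 0.05 or else the 2 smallest p values, Atg4a-ps, and the 3 nearest profiles of 3 members. The genes called by voom with the block are named too. Of the cell type markers, those with an unadjusted p under 0.05 are named, and Csf1r, Ly6g, Ly6c2, Ccr2, Retnlg, Mmp9, Apoe, the third C1q gene and Krt20 were picked with their values known. The members and lists were chosen with earlier results of these data known. Alternatives were the pseudocount, the filter, the scaling, the block, voom, and leaving out libraries.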

Additional observations from a re-analysis of the deposited data

Results flagged for a closer look

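Of 38 groups of 4 libraries looked at (the 9 members, Atg5, Lyz2, Atg4a-ps and the other conjugation partners in each group), 2 held a library far from the other 3 by Dixon's criterion; chance gives about 1 in 20. Atg5 in Atg5 WT mouse 1 was at 6.73 FPKM, above the other Atg5 WT libraries. Atg16l2 in Atg5 WT mouse 4 was at 4.38 FPKM, above the other Atg5 WT libraries. None of the 9 members was among them.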

How the results depend on the processing

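No member passed an adjusted p of 0.05 in any of the 18 alternatives. Over all genes the count of calls was 0 in the main test. It was 1 (Atg5) with median-of-ratios scaling, without both mouse 1 libraries and with the mouse number as a replicate block. Voom with the block called 8 genes. Atg5, Slpi, Vcan, Fstl1, Col3a1, Fbn1 and Col1a2 were higher and Lyz2 was lower in the KO-labelled group. Col3a1 and Col1a2 are on the fibroblast list and Vcan is on the monocyte list. When single libraries were left out the count was 0 to 1, the call being made without Atg5 WT replicate 1. The block changed the call of no member. Differences on the log2 scale changed sign for 5 members. Gabarap turned to 0.015 with TPM scaling and 0.034 without both mouse 1 libraries, and lay between -0.075 and 0.060 when single libraries were left out. Atg4b turned to -0.021 with median-of-ratios scaling and -0.021 without both mouse 1 libraries (-0.032 to 0.077 when single libraries were left out), and Atg4d to 0.00075 with TPM scaling (-0.22 to 0.086). Gabarapl1 lay between -0.014 and 0.12 and Gabarapl2 between -0.0055 and 0.31 when single libraries were left out. The cause of these changes was not tested. Map1lc3a (-0.33 to -0.10), Map1lc3b, Atg4a and Atg4c kept their sign in all 18. The coding length of Map1lc3b, an alternative chosen after the data were seen, moved its share of the ATG8-like sum from 11.5% to 17.5% and that of Gabarap from 68.1% to 63.5%. The fragments divided by the coding length were not recounted for that transcript. Undivided fragments gave 27.6% and 53.4%. The length of the principal coding transcript of Atg4d, also chosen after the data were seen, moved its mean from 9.29 to 3.97 FPKM. The fragments divided by it were those of the shorter deposited span. The lowest fragment counts behind a member were 125 for Map1lc3a and 143 for Atg4a, while the widest errors were those of Gabarapl2 and Atg4d.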
